A study of Mus musculus with 2 samples.

Results

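Zinc handling genes were followed across the cell classes of islets from WT and *Npc1*-/- mice. The genes were 5 zinc transporters, *Slc30a8*, *Slc30a1*, *Slc30a5*, *Slc39a1* and *Slc39a14*, and 2 metallothioneins, *Mt1* and *Mt2*. These 7 symbols were looked up among the 31053 genes of the deposited matrices and all 7 were found. Droplet-based single cell RNA sequencing counted unique molecular identifiers (UMIs), each marking 1 captured transcript molecule read at its 3′ end, in 1 library of WT and 1 library of *Npc1*-/- islet cells. Each library came from a pool of 3 female mice aged 2 weeks, so the spread between mice was not measured. The *Npc1*-/- mice lacked *Npc1* in the whole body, on a C57BL/6J background. The WT mice were their littermates, born to heterozygous parents. The labels name no treatment for either group.

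Zinc moves across membranes through 2 families of carriers. SLC30 proteins (ZnT) move zinc out of the cytosol, either out of the cell or into vesicles, and SLC39 proteins (ZIP) move it into the cytosol. In β cells *Slc30a8* encodes ZnT8, which loads zinc into the insulin granule, where insulin is stored as a crystal with zinc. Metallothioneins are small cysteine-rich proteins that bind zinc and copper in the cytosol, and their genes are induced by zinc through the metal-responsive transcription factor MTF1, and also by glucocorticoids and oxidative stress.

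*Mt2* (ENSMUSG00000031762) and *Mt1* (ENSMUSG00000031765) lie beside each other on the plus strand of chromosome 8, *Mt2* from 94172664 to 94173568 and *Mt1* from 94179082 to 94180327 in GRCm38, with 5513 bases and 0 annotated genes between them. MTF1 binds metal response elements, whose core was searched here as TGCACNC and TGCGCNC on both strands. RefSeq starts on GRCm38.p6 were found for 5 of the 7 genes. Of 32851 windows of 250 bases before a RefSeq start, 21.4% held at least 1 match of either form and 0.770% held at least 3. *Mt2* had 3 matches, *Mt1* 1, *Slc30a1* 1, *Slc30a5* 1 and *Slc39a1* 0. Letters outside these windows, including those after the RefSeq start, were not searched. The counts are thus of the windows and not of all elements of a gene. The windows of both metallothionein genes and of *Slc30a1*, the zinc exporter that is also known to be induced through MTF1, are shown with the matches in capitals, and a match is a description of the letters, not of binding. They are chr8:94172368-94172617 on the plus strand for *Mt2*, chr8:94178839-94179088 on the plus strand for *Mt1* and chr1:191906531-191906780 on the plus strand for *Slc30a1*.
Mt2: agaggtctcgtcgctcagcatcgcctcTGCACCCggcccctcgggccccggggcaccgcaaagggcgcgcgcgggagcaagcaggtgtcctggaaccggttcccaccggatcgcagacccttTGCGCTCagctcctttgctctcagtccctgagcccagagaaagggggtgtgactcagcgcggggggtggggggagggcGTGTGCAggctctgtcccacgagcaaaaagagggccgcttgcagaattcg
Mt1: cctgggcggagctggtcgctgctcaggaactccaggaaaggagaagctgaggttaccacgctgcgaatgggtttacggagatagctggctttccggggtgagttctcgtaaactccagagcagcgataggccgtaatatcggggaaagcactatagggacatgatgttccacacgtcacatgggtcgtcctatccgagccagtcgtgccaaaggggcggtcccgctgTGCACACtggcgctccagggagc
Slc30a1: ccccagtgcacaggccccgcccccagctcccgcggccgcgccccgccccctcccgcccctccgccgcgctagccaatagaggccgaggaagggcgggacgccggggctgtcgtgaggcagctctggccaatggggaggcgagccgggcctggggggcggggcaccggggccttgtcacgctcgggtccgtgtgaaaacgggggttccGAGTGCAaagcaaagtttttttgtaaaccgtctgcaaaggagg
The last of the 3 *Mt2* matches ends 43 bases before the RefSeq start, the single *Mt1* match 16 bases before it and that of *Slc30a1* 36 bases before it. *Gm45774* overlaps *Mt2* on the other strand.

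The WT library held 8569 barcodes with 114324626 UMIs and the *Npc1*-/- library 7646 barcodes with 127122035 UMIs. A barcode was kept if it had over 1000 genes and under 50000 UMIs, of which mitochondrial genes took less than 10% and haemoglobin genes 0.1% or less, and 4628 WT and 4269 *Npc1*-/- barcodes met this. *Npc1*, the deleted gene, had 790 UMIs in the kept WT barcodes and 391 in the kept *Npc1*-/- barcodes, or 8.40 and 4.14 counts per 1e6 UMIs (CPM). The library with the *Npc1*-/- label therefore had less of it, but not none. A barcode was assigned to β, α, δ or PP cells by its leading hormone (insulin, *Gcg*, *Sst*, or *Ppy* with *Pyy*) where that hormone took at least 10% of its UMIs, and otherwise to endothelial, stellate, mesenchymal cells or macrophages by 8 markers each. The β class held 1833 WT and 1826 *Npc1*-/- cells, the α class 1048 and 857, the δ class 189 and 141 and the PP class 411 and 442. The endothelial class held 427 and 426 cells, the stellate class 241 and 259, the mesenchymal class 49 and 60 and the macrophages 54 and 32. Every checked marker was highest in its own class in both libraries except *Tspan8*, which was highest in δ instead of PP cells of *Npc1*-/-. The markers of the non-endocrine classes, and *Ppy* and *Pyy* of PP cells, had themselves assigned the barcodes, so their place was largely set beforehand. Only the β, α and δ markers and *Tspan8* were a separate check. The δ class also carried PP hormones, since *Ppy*, *Pyy* and *Tspan8* summed to 111547 CPM there in WT and 118286 CPM in *Npc1*-/-. The libraries shared 12 barcodes, 3 of them kept.

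The level of a gene is its CPM in the pooled UMIs of a class in 1 library, with an exact 95% Poisson interval, and differences are log2 ratios of *Npc1*-/- over WT relative to the median gene of the class, after adding 0.5 counts. With 1 library per genotype there are no replicates and hence no tests, and all intervals cover counting error only, since UMIs of 1 preparation are not independent animals. Intervals on pooled UMIs also leave out the spread between cells, so they are too narrow for a gene spread unevenly among cells. A gene entered a ratio count at 5 CPM or more in either library, and called means at least 1.5-fold from the median gene. Hormone UMIs are part of the total, and insulin took 51.9% of WT and 49.3% of *Npc1*-/- β cell UMIs. Every other gene therefore has a lower CPM there than without insulin UMIs. Orders and folds between classes are of CPM and were not computed without hormone UMIs. Levels in bins of cells are likewise set side by side in CPM, not relative to the median gene.

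*Slc30a8*, the ZnT8 gene of the insulin granule (ENSMUSG00000022315, chromosome 15, 52295553 to 52335798, plus strand), was highest in α and β cells. The WT level was 601.4 CPM in α cells (590.3 to 612.7) and 520.2 CPM in β cells (514.1 to 526.2), and the *Npc1*-/- level 607.5 CPM (595.9 to 619.2) and 506.4 CPM (500.4 to 512.4). The α level in CPM was thus 1.16 times the β level in WT and 1.20 times in *Npc1*-/-, with intervals apart. Per cell the order was the other way. In WT 28501 UMIs came from 1833 β cells and 11120 from 1048 α cells. In *Npc1*-/- 27420 came from 1826 β cells and 10428 from 857 α cells. PP cells followed with 84.3 and 85.8 CPM, which put β cells 6.17-fold and 5.90-fold above them. The other 5 classes lay between 14.9 and 36.6 CPM in WT and between 13.6 and 26.8 CPM in *Npc1*-/-, and neighbours in that order had overlapping intervals. After each cell was thinned to 5000 UMIs, a *Slc30a8* UMI was found in 90.9% of WT (89.5 to 92.2, Clopper-Pearson) and 87.5% of *Npc1*-/- β cells (85.9 to 89.0), against 99.2% and 98.9% unthinned, at median depths of 30417 and 30094 UMIs. In α cells the thinned shares were 93.6% and 94.2%. Endothelial cells, which should lack the gene and had median depths of 7597 and 9374.5 UMIs, had one in 12.4% and 8.63% of thinned cells, and δ cells in 9.94% and 10.8%. The δ and endothelial shares had overlapping intervals in each library, while the share of PP cells, 20.3% and 21.4%, was above the endothelial one in both. The PP counts were uneven among cells. The tenth of PP cells with most *Slc30a8* held 68.7% of its thinned UMIs in WT and 73.3% in *Npc1*-/-. The variance over the mean was 2.33 and 2.72 there, where counting alone gives 1, so the PP level is not one of PP cells in general. The CPM of δ cells overlapped that of endothelial cells in WT, 29.1 (23.0 to 36.3) against 24.9 CPM (20.4 to 30.2). In *Npc1*-/- it was higher, 23.0 (17.4 to 29.9) against 13.6 CPM (10.6 to 17.2). It overlapped the levels of stellate, mesenchymal cells and macrophages in both libraries, which were 26.8, 24.3 and 22.5 CPM in *Npc1*-/-. Whether δ cells hold *Slc30a8* above free RNA is therefore not read from the shares or these levels.

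**Figure D1:**
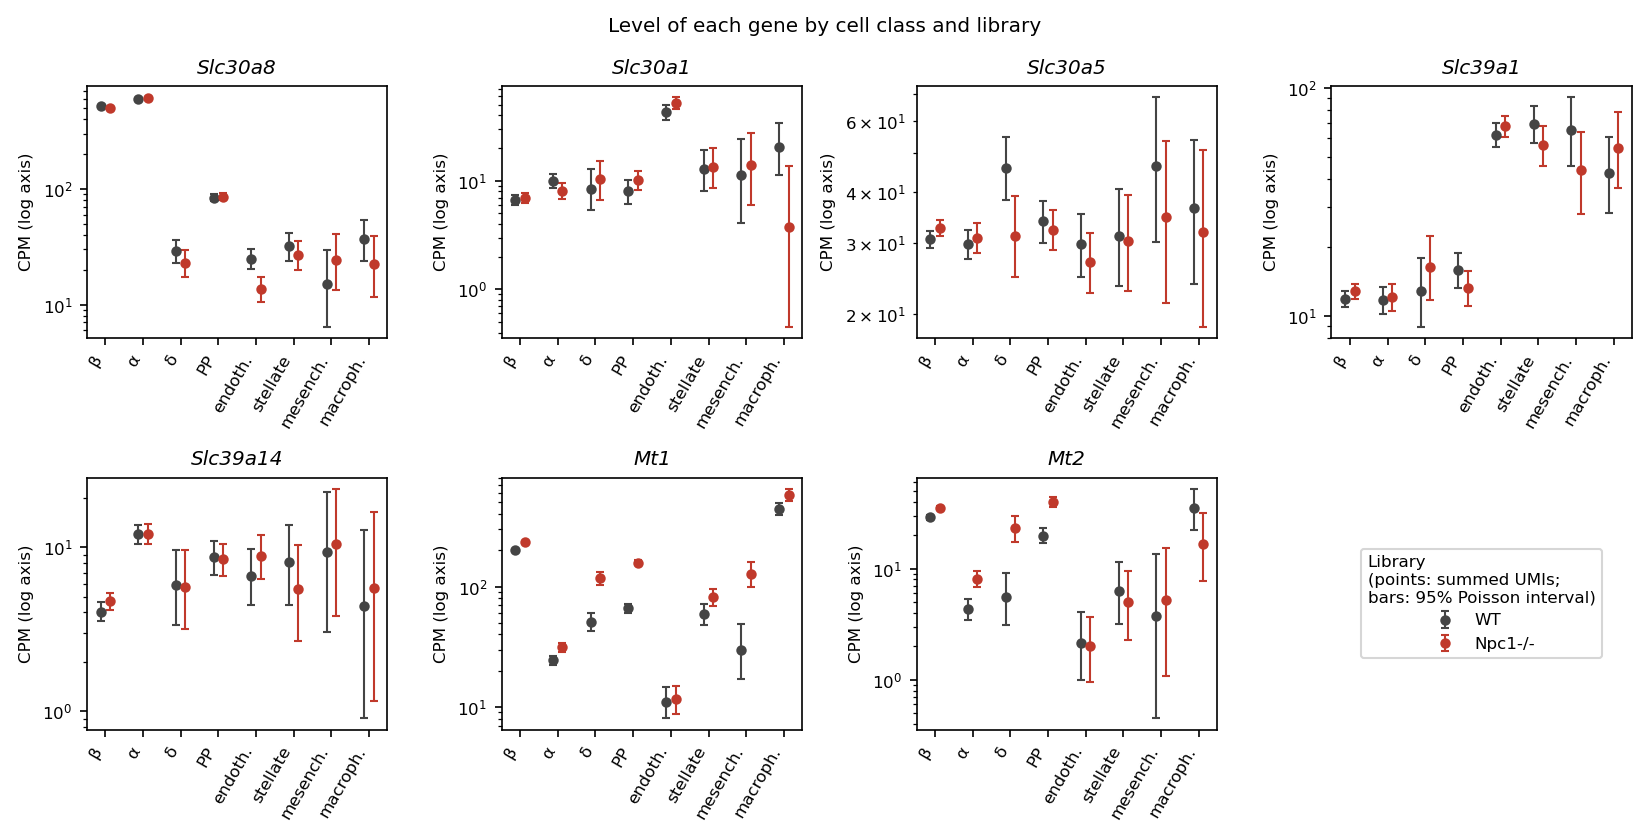
Level of each of the 7 genes in 8 cell classes, in CPM of summed UMIs on a log axis, for the WT library (grey) and the *Npc1*-/- library (red), with 95% Poisson intervals for counting error. *Slc30a8* stands above 500 CPM in β and α cells alone, *Slc30a1* is highest in endothelial cells, and *Mt1* spans 11.02 to 441.9 CPM among the WT classes.

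Free RNA was followed through the counts of *Slc30a8* that would come along with insulin and glucagon RNA in the proportions of β and α cells. Endothelial cells held 1.31 times the expected UMIs in WT (1.07 to 1.58) and 1.22 times in *Npc1*-/- (0.949 to 1.55). PP cells held 2.51 times (2.32 to 2.70) and 1.90 times (1.77 to 2.03), and δ cells 1.96 times (1.55 to 2.45) and 2.10 times (1.59 to 2.73). The δ counts were thus above those expected from free insulin and glucagon RNA in both libraries. Their interval overlapped the endothelial one in WT and lay above it in *Npc1*-/-. Those of stellate, mesenchymal cells and macrophages overlapped the δ interval in both libraries. In *Npc1*-/- they were 1.46 (1.07 to 1.93), 1.80 (0.984 to 3.02) and 2.65 times (1.37 to 4.63). RNA from PP cells was not part of the expected counts, so the excess does not set δ cells apart from these classes. The endothelial level of *Slc30a8* was lower in *Npc1*-/-, 13.6 against 24.9 CPM, a log2 ratio of -0.87 (-1.34 to -0.42). Insulin in the same cells also differed, 0.929% of UMIs in *Npc1*-/- against 1.66% in WT, and *Slc30a8* per 1e5 insulin UMIs was 146.4 (113.7 to 185.5) against 150.2 (122.7 to 181.9). The endothelial difference in *Slc30a8* was thus no longer seen per insulin UMI.

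Between genotypes *Slc30a8* in β cells was slightly lower than the median gene in *Npc1*-/-, with a log2 ratio of -0.16 (-0.18 to -0.13). It was -0.01 in α cells (-0.05 to 0.02), -0.04 in PP cells (-0.18 to 0.11) and -0.34 in δ cells (-0.87 to 0.16). The β ratio stayed below 0 under all 12 alternatives, from -0.21 with equally weighted bins of the dissociation response to -0.039 for the CPM ratio not set relative to the median gene, which itself was at 0.12 in β cells. In δ cells a leading hormone of at least 20% of UMIs, which left 44 WT and 37 *Npc1*-/- cells, gave -2.45. Over 5 bins of β cells by their *Ppy* and *Pyy* share, *Slc30a8* was highest in bin 4 of both libraries, 573.5 CPM in WT and 575.1 CPM in *Npc1*-/-, and lower in bin 1, 491.0 and 455.8 CPM, and in bin 5, 488.8 and 474.6 CPM. The *Npc1*-/- level was below WT in 4 of 5 bins, with intervals apart in 2.

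Among the other exporters, *Slc30a1* encodes ZnT1, which moves zinc out of the cell across the plasma membrane (ENSMUSG00000037434, chromosome 1, 191906767 to 191913247, plus strand). It was highest in endothelial cells, 42.7 CPM in WT (36.6 to 49.4) and 51.8 CPM in *Npc1*-/- (45.7 to 58.5), which was 6.37-fold and 7.44-fold above β cells at 6.70 and 6.96 CPM. The endothelial interval was apart from that of the next class in both libraries, and the 4 endocrine classes lay between 6.70 and 10.3 CPM. *Slc30a1* was close to the median gene in β cells, -0.06 (-0.27 to 0.15), and below it in α cells, -0.33 (-0.66 to -0.00), where 183 UMIs were counted in WT and 138 in *Npc1*-/-. In macrophages 14 UMIs stood against 2, a log2 ratio of -2.10 (-5.55 to -0.25). *1700034H15Rik* overlaps *Slc30a1* on the other strand.

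*Slc30a5* encodes ZnT5, a carrier of the early secretory pathway (ENSMUSG00000021629, chromosome 13, 100802648 to 100833427, minus strand). It was the most even of the 7 genes, from 29.7 to 46.6 CPM over the 8 classes in WT and from 26.8 to 34.7 CPM in *Npc1*-/-, and all neighbouring classes overlapped. In δ cells it was lower in *Npc1*-/-, 31.3 against 46.0 CPM, a log2 ratio of -0.57 (-1.0 to -0.15) from 76 and 125 UMIs, and δ was the only class whose interval left out 0. The δ value was below 0 in all 10 alternatives, from -0.65 to -0.44. In β cells the ratio was -0.03 (-0.13 to 0.07).

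*Slc39a1* and *Slc39a14* encode the importers ZIP1 and ZIP14, of which ZIP14 also carries iron and manganese. *Slc39a1* (ENSMUSG00000052310, chromosome 3, 90248172 to 90253612, plus strand) was lower in the 4 endocrine than in the 4 non-endocrine classes. The 4 endocrine classes lay between 11.7 and 16.4 CPM over both libraries and the other 4 between 42.4 and 69.4 CPM, and the lowest non-endocrine class was apart from the highest endocrine class in each library. Endothelial cells stood 5.24-fold above β cells in WT and 5.30-fold in *Npc1*-/-, a gap in CPM that the insulin UMIs of β cells widen. The order did not extend to all non-endocrine barcodes, since the 209 WT barcodes led by a lymphocyte list, which belong to none of the 8 classes, had *Slc39a1* at 8.85 CPM (4.25 to 16.3), overlapping the endocrine levels. None of its 8 ratios had an interval that left out 0. That of β cells was -0.01 (-0.17 to 0.14) and that of PP cells -0.33 (-0.70 to 0.04), from 130 and 124 UMIs. The transcript shares 20.1% of its 60-base words with the pseudogene *Slc39a1-ps*, so its counts are uncertain where reads could be split between them.

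*Slc39a14* (ENSMUSG00000022094, chromosome 14, 70303469 to 70351425, minus strand) was highest in α cells, at 12.1 CPM in both libraries, 2.98-fold above β cells in WT and 2.58-fold in *Npc1*-/-. In CPM β cells were lowest, at 4.05 in WT (3.54 to 4.62) and 4.67 in *Npc1*-/- (4.11 to 5.28), and neighbouring classes overlapped throughout. The insulin UMIs of β cells lower this CPM, so the place of β cells is one by share of UMIs, not per cell. Without thinning, more β cells (WT 11.1%, *Npc1*-/- 13.1%) than endothelial cells (6.32%, 8.69%) had a *Slc39a14* UMI, at a greater depth in β cells. Thinned to 5000 UMIs, the order turned, with 2.05% and 2.27% of β against 2.63% and 4.57% of endothelial cells. The intervals of these thinned shares overlapped in each library, and insulin UMIs count among the 5000. The unthinned shares of α and PP cells were above those of β cells in both libraries. In α cells its ratio was -0.03 (-0.31 to 0.25), and no interval left out 0 in the 7 classes where it reached 5 CPM.

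*Mt1* was highest in macrophages, then in β cells. Macrophages had 441.9 CPM in WT (393.5 to 494.7) and 579.0 CPM in *Npc1*-/- (516.3 to 647.3), and β cells 203.0 CPM (199.3 to 206.8) and 236.7 CPM (232.6 to 240.8). PP cells had 66.3 CPM (60.8 to 72.1) in WT and 158.3 CPM (150.4 to 166.6) in *Npc1*-/-. In δ cells the level was 50.8 CPM (42.7 to 60.05) in WT and 116.8 CPM (103.6 to 131.2) in *Npc1*-/-. α cells had 24.4 and 31.3 CPM and endothelial cells, the lowest in both libraries, 11.02 and 11.59 CPM. β cells thus carried 8.32 times the α level in WT and 7.57 times in *Npc1*-/-, the opposite order to that of *Slc30a8* in CPM. Stellate cells had 59.0 and 81.7 CPM and mesenchymal cells 29.8 and 126.8 CPM, from 102 and 146 and from 16 and 73 UMIs.

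*Mt1* was above the median gene in *Npc1*-/- in all 8 classes, and the interval left out 0 in 7 of them, endothelial cells being the exception at 0.07 (-0.51 to 0.66). It was called in 3 of the 8. The share of all genes whose interval left out 0 was not counted in any class, so the 7 have no background beside them. The direction turned in 2 of the 8 under other settings, in endothelial cells to -0.41 with a stricter cell filter and in β cells as given below. In PP cells the log2 ratio was 1.19 (1.05 to 1.34), a 2.29-fold difference, and in δ cells 1.19 (0.89 to 1.49), or 2.28-fold. In mesenchymal cells it was 2.10 (1.34 to 3.01), in macrophages 0.47 (0.24 to 0.70), in stellate cells 0.47 (0.09 to 0.85) and in α cells 0.33 (0.15 to 0.51). The PP value lay between 1.08 and 1.30 under 10 alternatives. The δ value was 0.53 with a leading hormone of at least 20% of UMIs and between 1.10 and 1.22 under the other 9. The macrophage value was 0.047 with doublets removed and 0.88 without the 5 cells with most *Mt1* in each library.

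The α value of *Mt1* was uneven among α cells. Over 5 bins by the *Ppy* and *Pyy* share, *Npc1*-/- was above WT in 2, bin 1 with 38.1 against 22.0 CPM and bin 5 with 45.3 against 24.9 CPM, with intervals apart. In bins 2 to 4 it was slightly below WT, from 22.6 to 24.6 CPM against 24.7 to 25.9 CPM, with intervals that overlapped. Over 5 bins by the dissociation response, it was above WT in 5, with intervals apart in 1.

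*Mt2* was also above the median gene in *Npc1*-/- δ, PP and α cells, and its β values are given below. In δ cells 15 UMIs in WT stood against 56 in *Npc1*-/-, or 5.52 CPM (3.09 to 9.11) against 23.0 CPM (17.4 to 29.9), a log2 ratio of 2.01 (1.21 to 2.98). This ratio was 1.41 with a leading hormone of at least 20% of UMIs. In PP cells the level was 19.9 CPM (16.9 to 23.2) in WT and 39.7 CPM (35.7 to 43.9) in *Npc1*-/-, with a log2 ratio of 0.93 (0.66 to 1.21). In α cells 4.33 CPM stood against 8.16 CPM, with a log2 ratio of 0.88 (0.48 to 1.30), and *Npc1*-/- was above WT in 5 of 5 α bins by the *Ppy* and *Pyy* share, with intervals apart in 2. Endothelial cells had 2.16 and 2.00 CPM, below the limit for a ratio, and macrophages 35.1 and 16.9 CPM from 24 and 9 UMIs, with a log2 ratio of -0.93 (-2.27 to 0.18). Stellate cells had 6.36 CPM in WT and 5.03 CPM in *Npc1*-/-, from 11 and 9 UMIs. Mesenchymal cells had 3.73 and 5.21 CPM, from 2 and 3 UMIs.

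In β cells both metallothionein genes were close to the median gene. *Mt1* had a log2 ratio of 0.10 (0.07 to 0.14) and *Mt2*, at 28.9 CPM in WT (27.5 to 30.4) and 35.0 CPM in *Npc1*-/- (33.5 to 36.6), one of 0.16 (0.06 to 0.25). *Mt1* turned below 0 under 2 of 12 alternatives and *Mt2* under 1 of 12, so that no direction is given for β cells as a whole. With bins of the dissociation response weighted equally the values were -0.080 for *Mt1* and -0.042 for *Mt2*, and with a stricter cell filter -0.036 and 0.035. With bins of the *Ppy* and *Pyy* share weighted equally they were 0.25 and 0.31.

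**Figure D2:**
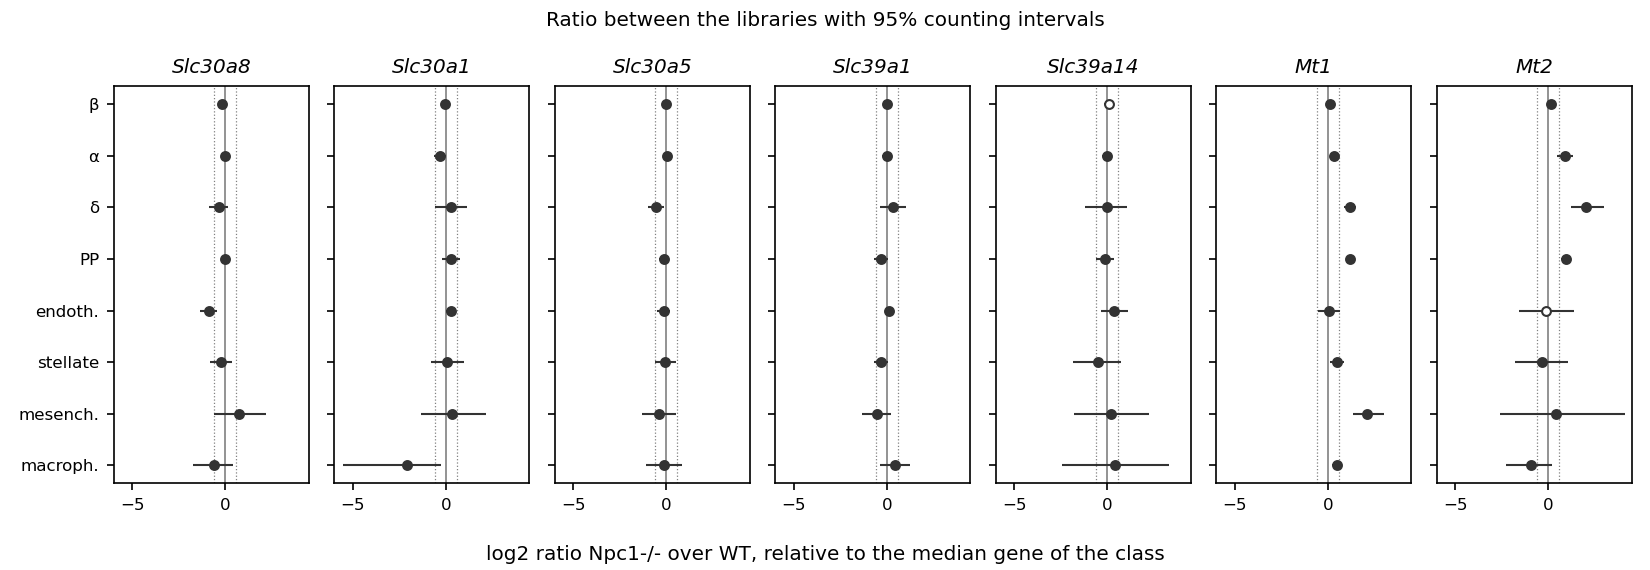
Log2 ratio of *Npc1*-/- over WT for each of the 7 genes (panels) in 8 classes (rows), relative to the median gene of the class (solid line at 0), with 95% counting intervals and dotted lines at 1.5-fold. Open points stayed under 5 CPM in both libraries. *Mt1* lies right of 0 in all 8 classes at these settings, from 0.07 in endothelial to 2.10 in mesenchymal cells, although the β and endothelial values turned below 0 under other settings. The *Slc30a8* points of β, α and PP cells lie between -0.16 and -0.01, and the *Slc39a1* point of PP cells lies at -0.33.

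Counted by class, 0 of 6 genes with a ratio were called in β cells, where 2.65% of all 8858 genes were called. In α cells 1 of 7 was called (*Mt2*) against 1.78% of all genes, in PP cells 2 of 7 (*Mt1* and *Mt2*) against 4.38% and in δ cells 2 of 7 (*Mt1* and *Mt2*) against 11.9%. In endothelial cells 1 of 6 was called (*Slc30a8*, lower) against 7.18%, and in stellate cells 0 of 7 against 15.2%. In mesenchymal cells 2 of 7 and in macrophages 3 of 7 were called, where 37.3% and 42.2% of all genes were, so that these shares are near the background. The median ratio of the genes was -0.02 in β, 0.02 in α, 0.27 in δ and -0.04 in PP cells, where that of all genes tested is 0 by construction.

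The shares of cells with a UMI of *Mt1* or *Mt2* were set side by side at 5000 UMIs per cell. *Mt1* was found in 24.8% of WT (20.6 to 29.3) and 41.9% of *Npc1*-/- PP cells (37.1 to 46.7), against 49.9% and 74.2% unthinned, and in 45.3% (43.0 to 47.7) and 51.8% (49.5 to 54.2) of β cells, against 79.2% and 84.2% unthinned. In δ cells it was 17.7% (12.4 to 24.0) and 30.9% (23.4 to 39.3), intervals that overlap. *Mt2* was found in 8.42% (5.90 to 11.6) and 15.3% (12.1 to 19.1) of PP cells and in 2.76% (0.904 to 6.33) and 11.5% (6.72 to 18.02) of δ cells. Endothelial cells, the class with least *Mt1*, had it in 4.47% and 4.06%, below each endocrine class. Cells with fewer than 5000 UMIs were left out, 7 WT and 12 *Npc1*-/- PP cells, 26 and 22 β cells and 8 and 2 δ cells.

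**Figure D3:**
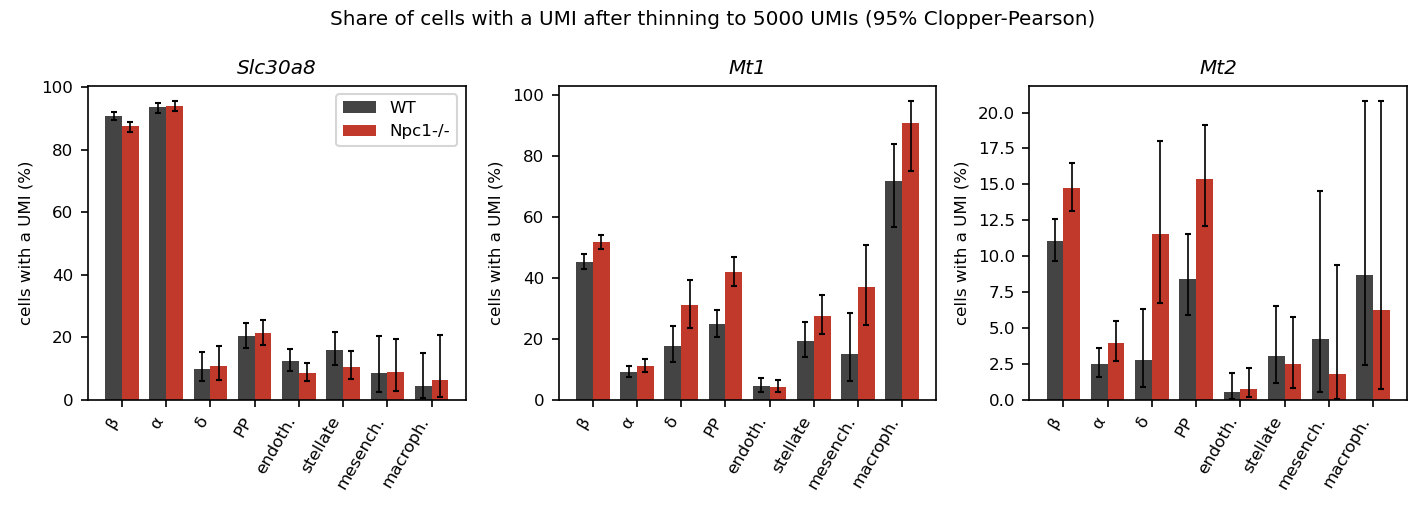
Share of cells (%) with at least 1 UMI of *Slc30a8*, *Mt1* or *Mt2* after thinning each cell to 5000 UMIs, by class, for WT (grey) and *Npc1*-/- (red), with 95% Clopper-Pearson intervals. *Slc30a8* is found in most β and α cells, while the *Mt1* share of PP cells is 24.8% in WT and 41.9% in *Npc1*-/-.

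Metallothionein transcripts were spread unevenly among β cells. At 5000 UMIs per cell, the tenth of β cells with most *Mt1* and *Mt2* held 49.9% of their UMIs in WT and 47.2% in *Npc1*-/-, against 23.9% and 24.2% for *Slc30a8*. The variance over the mean was 3.76 and 3.75 for the metallothioneins and 1.26 and 1.30 for *Slc30a8*, where counting alone gives 1. β cells with a *Mt2* UMI had *Mt1* in 81.0% of cases in WT (74.4 to 86.6) and 78.7% in *Npc1*-/- (73.1 to 83.5), and β cells without one in 41.9% (39.5 to 44.4) and 47.9% (45.4 to 50.4). The *Mt2* share of the UMIs of both genes was 12.5% and 12.9% in β cells, 23.1% and 20.03% in PP cells, and 7.36% (4.77 to 10.8) and 2.83% (1.30 to 5.30) in macrophages.

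Within β cells *Mt1* was lower where the PP hormones took a larger share. Over the 5 bins of the *Ppy* and *Pyy* share, the WT level was 223.6, 242.5, 213.6, 168.7 and 115.5 CPM, and the *Npc1*-/- level 295.5, 266.3, 267.1, 206.5 and 177.7 CPM. In CPM *Npc1*-/- was above WT in 5 of 5 bins with intervals apart in all 5, from 1.10 to 1.54 times. The median gene of β cells was itself higher in *Npc1*-/- in CPM, and the bin ratios are not relative to it. *Mt2* was above WT in 5 of 5 bins, with intervals apart in 3. The libraries filled these bins unequally, with 251 WT and 481 *Npc1*-/- cells in the highest.

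The response to dissociation, immediate early and heat shock genes such as *Fos*, *Jun* and *Hspa1a* that change while tissue is digested, also differed between the libraries. The 10 genes of this list summed to 858.4 CPM in WT and 280.5 CPM in *Npc1*-/- β cells, 2262 and 1188 CPM in PP cells and 2213 and 1100 CPM in δ cells. Over 5 bins of β cells by this share, *Mt1* stood at 189.2, 215.8, 231.6, 173.5 and 205.2 CPM in WT and at 275.5, 251.0, 225.7, 184.6 and 158.3 CPM in *Npc1*-/-. In CPM *Npc1*-/- was thus above WT in bins 1, 2 and 4 and below in bins 3 and 5. The intervals were apart in 2 of the higher and 1 of the lower bins. In PP cells cut into 2 bins by the same share, *Mt1* had levels of 67.4 and 65.6 CPM in WT and of 151.7 and 173.1 CPM in *Npc1*-/-, and in δ cells of 40.5 and 57.7 CPM in WT and of 95.7 and 154.4 CPM in *Npc1*-/-. In each PP and δ bin the *Npc1*-/- level of *Mt1* was 2.25 to 2.67 times that of WT. *Mt2* in PP cells had 28.6 CPM (22.7 to 35.7) in WT and 39.0 CPM (34.3 to 44.1) in *Npc1*-/- in the lower bin, 1.36 times with overlapping intervals, and 15.4 and 41.2 CPM in the higher bin, 2.68 times with intervals apart. In δ cells *Mt2* had 2.76 against 20.5 CPM in the lower and 7.37 against 27.5 CPM in the higher bin, with intervals apart in both. The part of dissociation in the β value was not tested.

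**Figure D4:**
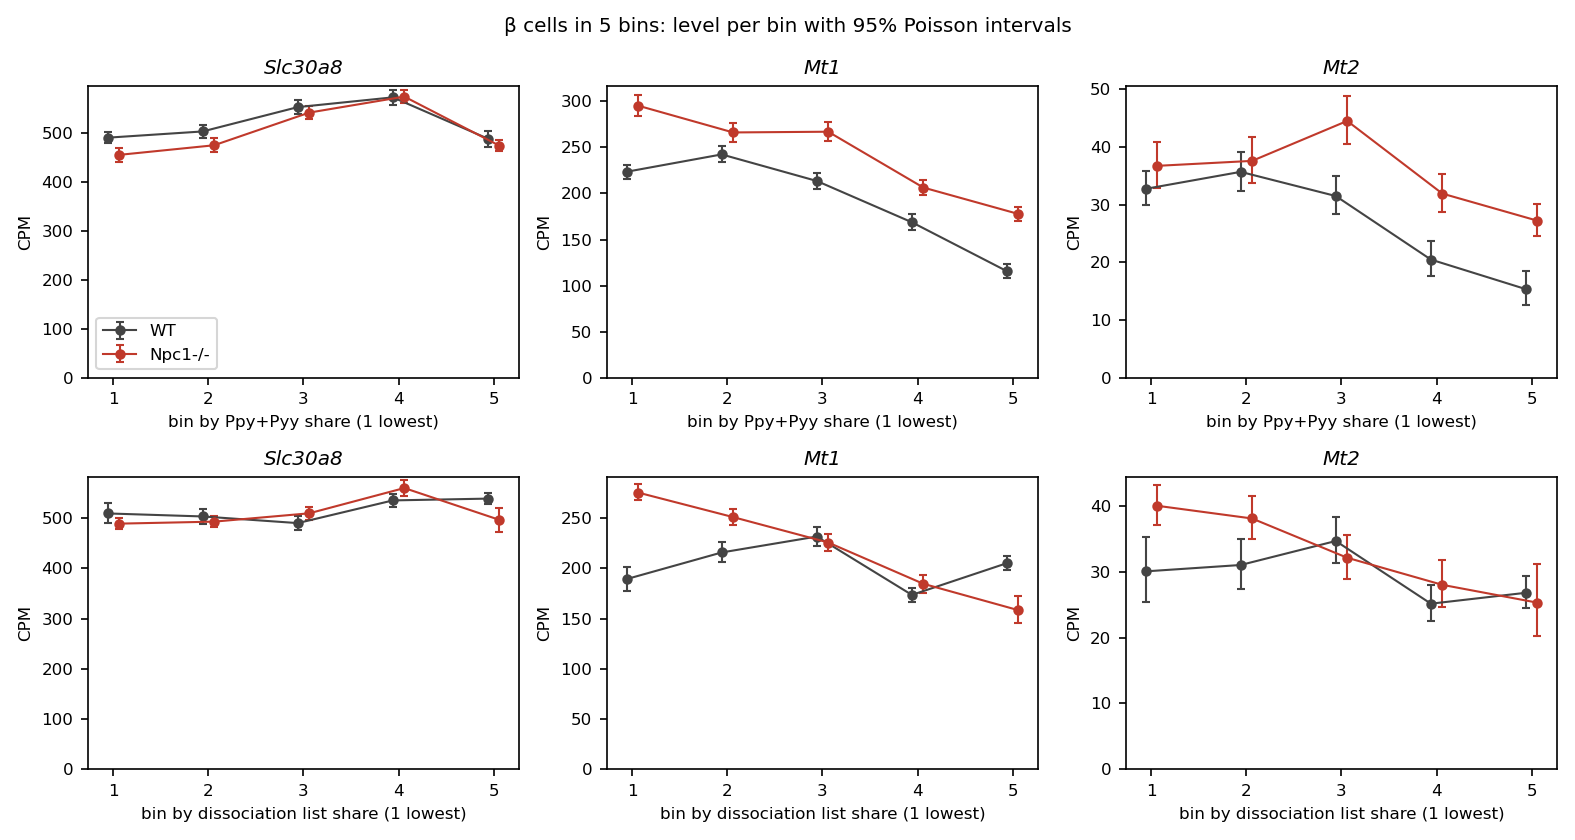
Level (CPM, with 95% Poisson intervals) of *Slc30a8*, *Mt1* and *Mt2* in 5 bins of β cells ordered by the share of UMIs from *Ppy* and *Pyy* (top row) or from the dissociation list (bottom row), for WT (grey) and *Npc1*-/- (red). *Mt1* of *Npc1*-/- lies above WT in all 5 bins of the top row, and the lines cross in the bottom row.

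Other cell types and other inducers were measured beside the PP and δ values. The 8 macrophage markers, which mark the class with most *Mt1*, summed to 17012 CPM in WT and 27011 CPM in *Npc1*-/- macrophages. In PP cells they summed to 64.8 CPM with 1 of 8 at 0 UMIs (*Mrc1*) in WT, and to 73.0 CPM with 3 of 8 at 0 (*C1qb*, *Adgre1* and *Mrc1*) in *Npc1*-/-. In δ cells they summed to 169.8 CPM with 5 of 8 at 0 in WT and 260.7 CPM with 1 of 8 at 0 in *Npc1*-/-. Insulin UMIs were 1.24% of the total in WT and 1.41% in *Npc1*-/- PP cells, and 1.23% and 0.780% in δ cells, against 51.9% and 49.3% in β cells. The 8 genes of a glucocorticoid response list, such as *Fkbp5* and *Tsc22d3*, summed to 151.8 and 180.6 CPM in PP and 179.7 and 198.2 CPM in δ cells. The 7 genes of an oxidative response list, such as *Hmox1* and *Nqo1*, summed to 216.5 and 227.1 CPM in PP and 262.2 and 254.1 CPM in δ cells. The 6 STAT3 targets, such as *Socs3*, summed to 237.7 and 179.7 CPM in PP and to 179.4 and 181.3 CPM in δ cells. *Junb* is in both the STAT3 and the dissociation list, so the sums of those lists are not separate measures. The part of all these responses in the metallothionein values was not tested.

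The wider set of zinc genes was described in the same way. The 28 genes were the SLC30 and SLC39 transporters from *Slc30a1* to *Slc30a10* and from *Slc39a1* to *Slc39a14* with *Mt3*, *Mt4*, *Mtf1* and *Tmem163*. Of these, 16 reached 5 CPM in β cells and 0 were called there, against 2.65% of all genes. The highest ratios were those of *Slc30a4*, which encodes the vesicular exporter ZnT4, at 0.36 (0.15 to 0.56), and of *Slc39a9*, which encodes the importer ZIP9, at 0.27 (0.14 to 0.40). The lowest was that of *Tmem163*, a zinc-binding membrane protein of vesicles, at -0.23 (-0.29 to -0.17). *Mtf1*, the metal-responsive factor itself, had 20.3 CPM in WT and 18.8 CPM in *Npc1*-/- β cells, a ratio of -0.22 (-0.35 to -0.10), and in PP cells 18.7 and 21.1 CPM, a ratio of 0.11 (-0.20 to 0.43). The median of the 16 ratios in β cells was -0.04.

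After *Slc30a8*, the highest genes of the list in β cells were *Slc39a7*, which encodes ZIP7 of the endoplasmic reticulum, and *Tmem163*. *Slc39a7* had 84.7 CPM in WT and 81.5 CPM in *Npc1*-/-, and *Tmem163* 83.9 and 77.5 CPM. *Tmem163* was highest in β cells in both libraries, with 22.9 and 22.6 CPM in α cells. *Slc39a10* was highest in endothelial cells, 58.0 and 63.6 CPM against 5.66 and 5.80 CPM in β cells. Of the 23 list genes outside the 7, 0 were called in α (13 with a ratio), PP (13), endothelial (12) and stellate cells (12). Of all genes, 1.78%, 4.38%, 7.18% and 15.2% were called there. In δ cells 1 of 14 was called against 11.9% of all genes, *Slc39a8*, with 14 UMIs in WT and 4 in *Npc1*-/-. In mesenchymal cells 3 of 11 and in macrophages 2 of 13 were called, against 37.3% and 42.2% of all genes. The genes called in mesenchymal cells and macrophages had at most 25 UMIs in either library.

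Over the 16 profiles of 8 classes in both libraries, *Slc30a8* was most like *Cib3*, with a Pearson r of 0.97 for log2(CPM + 10) among 9964 genes, followed by *Dapl1* (0.95), *Nell1* (0.95), *Maob* (0.95) and *Skap1* (0.95). *Slc39a14* was most like *Qsox1* (0.91) and *Ptprd* (0.85). *Mt1* was most like *Creg1* (0.84), *mt-Co1* (0.84) and *Sirpa* (0.83), and *Mt2* came at rank 14 with 0.78. The 16 profiles share 2 libraries and their free RNA, so these values are a description of likeness across classes.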

How the data were processed

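Single cell RNA sequencing of islet cells was taken from 1 WT and 1 *Npc1*-/- library. The files deposited by the authors hold unnormalized UMI counts of every gene in the barcodes that Cell Ranger called as cells, before the study's own filters. The submitters' processing notes name Cell Ranger 3.1.0, Seurat 4.0.3 and mm10, and the annotation is not given in the sources used here. The labels name the v3 reagents, another version than the methods text does.

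All later steps were run in Python 3.11.15, using Scrublet in scanpy 1.11.5, pandas 2.3.3, matplotlib 3.10.9, scipy 1.17.1 and numpy 2.4.6, and in R 4.3.3, using edgeR 4.0.16 for the TMM factor only. Doublets were not removed, except as an alternative at 0.8% per 1000 barcodes. Marker classes needed at least 3 of 8 markers. CPM, intervals and ratios were computed as stated in the report, which also gives the depth. Thinning and Scrublet used random seed 42. Schwann and lymphocyte lists competed for barcodes, and those barcodes went to no class. Counting intervals and ratios were also computed on simulated Poisson counts. Those counts hold no spread between cells or mice, so they cannot show how the intervals behave under such spread.

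The genes, lists, bins and marker rule were chosen with earlier results of these data known. Named were the 7 genes, the 3 zinc genes with most UMIs and the 3 furthest from the median gene in β cells, and the 5 genes most like *Slc30a8*, *Slc39a14* and *Mt1* among those with at least 20 CPM in any class. For *Slc39a14* and *Mt1* the lower places in that order are not reported here. *Mtf1*, *Slc39a10* and *Slc39a8* were named after their values were seen. Alternatives were other cell filters (looser: more than 500 genes and under 20% mitochondrial UMIs with no upper UMI limit, stricter: more than 2000 genes and under 5%), doublet removal, a 20% hormone limit, other scalings, the mean over cells, other limits on low counts, a 2-fold limit and thinning to 2500 UMIs. Alternatives chosen after seeing the data were leaving out the 5 cells with most of a gene, equally weighted bins of β cells, the expected free RNA and the bins of other classes. Positions come from the GENCODE annotation of GRCm38, promoter windows from RefSeq. The study's protein, imaging and Min6 measurements were not analysed here.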

Additional observations from a re-analysis of the deposited data

Results flagged for a closer look

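Counts of the 7 genes were also found in kept barcodes that entered no comparison, 376 in WT and 226 in *Npc1*-/-. No hormone and no marker list of the 8 classes had assigned them. In WT these held *Slc30a8* at 103.3 CPM, *Slc30a1* at 12.4, *Slc30a5* at 36.4, *Slc39a1* at 31.5, *Slc39a14* at 10.3, *Mt1* at 42.8 and *Mt2* at 6.37 CPM. In *Npc1*-/- the values were *Slc30a8* at 202.9 CPM, *Slc30a1* at 20.1, *Slc30a5* at 41.3, *Slc39a1* at 39.2, *Slc39a14* at 12.1, *Mt1* at 196.8 and *Mt2* at 26.3 CPM. All 14 lie above the level that a count of 3 gives, 1.06 CPM for the WT barcodes and 0.885 CPM for the others. The barcodes differ in kind, since the lymphocyte list led in 209 of them in WT and in 1 in *Npc1*-/-. The Schwann list led in 36 and 42 of them. Where neither the Schwann nor the lymphocyte list led, *Mt1* stood at 38.3 CPM in 131 WT barcodes and at 201.3 CPM in 183 *Npc1*-/- barcodes.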

How the results depend on the processing

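No paired analysis was possible because each genotype has 1 library, and for the same reason no replicate could be left out. Values are log2 ratios in β cells. *Slc30a8* (-0.16) was -0.12 with the stricter cell filter, -0.039 not relative to the median gene, -0.11 with totals without hormones, -0.13 with equally weighted bins of *Ppy* and *Pyy* and -0.21 with those of dissociation. *Slc30a5* (-0.03) was 0.092 not relative to the median gene. *Mt1* (0.10) was 0.063 with the looser filter, 0.053 with doublets removed, 0.22 not relative to the median gene, 0.15 with totals without hormones, 0.16 as a mean over cells and 0.25 with bins of *Ppy* and *Pyy*, but -0.036 with the stricter filter and -0.080 with bins of dissociation, which turned its direction. *Mt2* (0.16) was 0.035 with the stricter filter, 0.28 not relative to the median gene, 0.26 as a mean over cells and 0.31 with bins of *Ppy* and *Pyy*, but -0.042 with bins of dissociation. The cause of these shifts was not tested. Genes called over the 8 classes numbered 11 at 1.5-fold, 5 at 2-fold and 10 with a limit of 20 CPM. The share of all genes called ran from α cells to macrophages, 1.78% to 42.2% at 1.5-fold. It was 0.434% to 22.5% at 2-fold and 1.05% to 31.4% with the limit of 20 CPM. Of the 11, 2 were in mesenchymal cells and 3 in macrophages, where these shares were highest. Of the values in other classes and single genes, 476 kept within their counting interval and 14 did not. The intervals of small classes are wide, so keeping within them does not show that a value was stable. *Slc30a1* in stellate cells, for example, ran from -0.65 to 0.41 within its interval. At 2500 UMIs per cell the *Npc1*-/- share with a UMI of *Mt1* or *Mt2* was higher in 13 of 16 gene and class pairs, against 12 at 5000. Depth limits the small classes most, where 1 UMI is worth 1.86 CPM in WT mesenchymal cells and 1.87 CPM in *Npc1*-/- macrophages.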

Other observations

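Barcodes that the filters removed carried the same genes. In the 167 WT and 369 *Npc1*-/- barcodes with at least 50000 UMIs, *Mt1* stood at 238.2 and 235.8 CPM and *Slc30a8* at 428.8 and 433.5 CPM. In the 2628 WT and 2395 *Npc1*-/- barcodes with at least 10% mitochondrial UMIs, *Mt1* stood at 115.1 and 94.9 CPM and *Slc30a8* at 469.5 and 348.2 CPM. Barcodes led by the Schwann list, 36 in WT and 42 in *Npc1*-/-, had *Mt1* at 167.0 and 151.3 CPM and *Slc39a1* at 94.9 and 86.0 CPM. The 209 WT barcodes led by the lymphocyte list had *Mt1* at 19.5 CPM (12.2 to 29.5) and *Slc39a1* at 8.85 CPM (4.25 to 16.3).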
